A study of Mus musculus with 2 samples.

Results

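The genes described here are those of the proteasome, the protease complex that degrades ubiquitin-tagged proteins, with its activators, its inhibitor and its assembly chaperones. They were taken as the probe sets whose single platform gene symbol starts with Psma, Psmb, Psmc, Psmd, Psme, Psmf or Psmg, and the immunoproteasome genes Psmb8, Psmb9 and Psmb10 were left out. This gave 99 probe sets for 46 genes, of 34958 probe sets for 18194 genes in all, and a gene's value is that of its probe set with the highest mean over both arrays. Of the 46 genes 44 were measured, meaning that this probe set exceeded an intensity of 44.3, the median of all values, on at least 1 array; Psma8 (2.01 and 28.7), a testis form of an alpha subunit, and Psmb11 (18.7 and 10.3), the beta subunit of the thymus, did not. Of the other 44 genes, Psmc3ip, a partner in meiotic recombination, and Psme3ip1, a protein that binds Psme3, carry a subunit's name without being subunits. The probe set for Psme2 also carries the symbol Psme2b and was not counted among these genes.

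The study set mouse cells labelled lymphoma, grown in medium with serum, against cells of the same label grown together with endothelial cells, with 1 array of total RNA from each culture. The labels do not name the lymphoma line, its genotype, the source of the endothelial cells, the time in culture, or any separation of the cell types before extraction. The comparison asks which transcripts differ between these cultures. With 1 array per culture there are no replicates, no value below has a replicate error, and no test or p-value is given. A bulk array also cannot separate a change in the mix of cells from a change within 1 cell type.

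The proteasome is built around a barrel-shaped core particle of stacked rings. The outer rings of alpha subunits form the gate, and the inner rings of beta subunits hold the proteolytic sites, on Psmb5, Psmb6 and Psmb7. A regulatory particle caps the barrel: its base holds a ring of ATPases (Psmc genes) that unfold the substrate, and its lid (Psmd genes) removes the ubiquitin chain. Other caps, the Psme activators, open the gate without ATP. The subunits are assembled with the help of dedicated chaperones, and the transcription factor Nfe2l1 is known to raise all the subunit genes together when proteasome activity falls. Cells that divide fast, lymphoid tumour cells among them, are known to depend on the complex.

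Some facts of the arrays stand beside every value. The median intensity of all probe sets was 36.9 for the serum culture and 50.7 for the co-culture. The ratio of 3′ to 5′ signal was 3.56 and 2.05 for beta-actin, 2.54 and 1.88 for Gapdh, and 13.2 and 5.03 for Tfrc, serum culture first; the part of this gap in the differences below was not tested. Markers of the labelled cell type were near background: of 10 B cell markers with a probe set 2 were measured, of 7 T cell markers 1, and of 10 pan-leukocyte and myeloid markers 4, and the highest intensity among them was 161, that of Ebf1 in serum culture. Of 16 endothelial markers 3 were measured. The summed intensity of all 16, those not measured included, was 814 in serum culture and 920 in co-culture. Of this the measured Egfl7 made up 473 and 532, Flt1 93.3 and 26.4, and Eng 36.5 and 58.5. Pecam1, Cdh5 and Kdr were below 44.3 on both. Both samples are called by their labels for this reason.

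Proteasome transcripts were bright on both arrays and differed little between them. The intensity, averaged over both arrays, ran from 300.1 to 10583 over the 44 measured genes with a median of 5361, and 42 of the 44 reached 1000, against 39.8% of all measured genes. The log2 difference, co-culture minus serum, had a median of -0.06 over the 44 genes, with 21 above 0 and 23 below. Over all 11543 measured genes the median was also -0.06. The differences of the proteasome genes had an SD of 0.31 and an interquartile range of 0.29, and those of all measured genes an SD of 0.73 and an interquartile range of 0.81. Among the 4598 genes with a mean intensity of at least 1000 the SD was 0.54.

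By the brightest probe set of each gene, few proteasome genes passed a fold limit. In co-culture 1 of 44 was at least 2-fold higher (4.6% of all measured genes were, and 2.07% of those with a mean intensity of at least 1000). At least 2-fold lower were 0 of 44 (10.1% and 4.5%). At the limit of 1.5-fold, 3 of 44 (6.82%) were higher, against 12.8% of all measured genes and 8.03% of those with a mean of at least 1000. At the same limit 1 of 44 (2.27%) was lower, against 21.6% and 13.9%. Scaling to the bacterial hybridisation spikes gave 2 higher and 2 lower instead. This scaling moved the median log2 difference of all measured genes from -0.06 to -0.26, and the shares over all genes under it were not counted. The choice of probe set moved the upward count more. With the mean over all measured probe sets of a gene 6 of 44 (13.6%) were at least 1.5-fold higher, against 14.6% of all measured genes under that setting. Another setting left out probe sets marked as shared between sequences, by a name ending in _a_at, _s_at or _x_at. Whether these match transcripts of other genes was not tested. Without them 7 of 39 (17.9%) were at least 1.5-fold higher, against 14.7%. Of these, Psma3, Psma5, Psmc6 and Psmd13 passed the limit only because a bright probe set gave way to a much dimmer one. The means of the dimmer ones were 120, 111, 289 and 42.4. The downward share stayed below that of all genes, at 0 of 44 against 18.1% and 1 of 39 (2.56%) against 21.1%. A limit of 1.3-fold, chosen after the values were seen, held 37 of the 44 genes (84.1%), against 48.4% of all measured genes and 60.5% of those with a mean of at least 1000. The latter had a median intensity of 2481, against 5361 for the proteasome genes, so they are not matched in brightness.

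**Figure D1:**
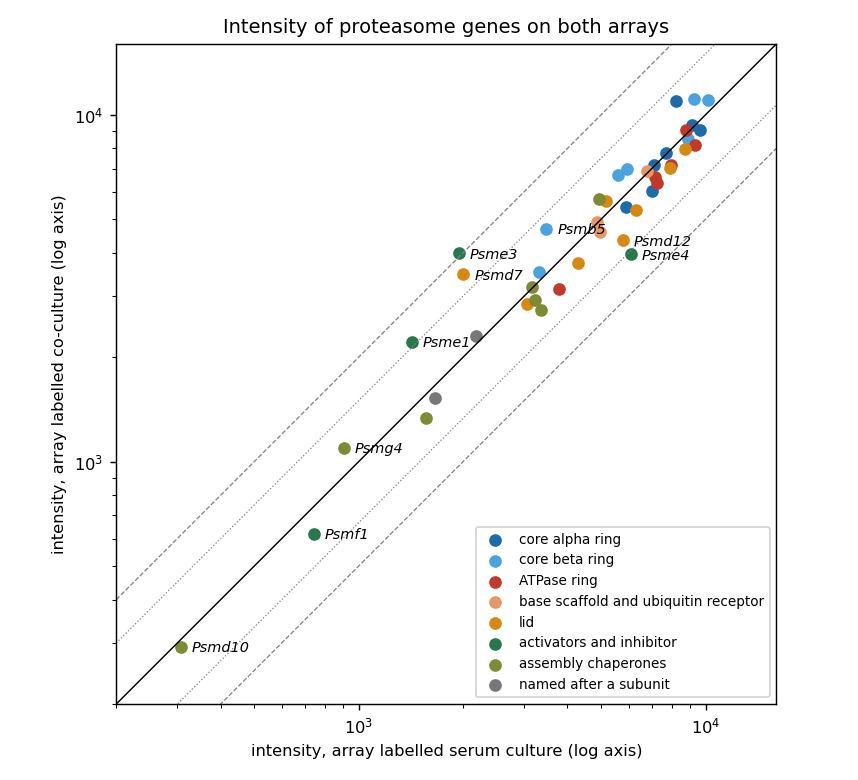
Intensity of each measured proteasome gene on the array labelled serum culture (horizontal, log axis) and on the array labelled co-culture (vertical, log axis), 1 point per gene, coloured by place in the complex. The solid line marks equality, the dotted lines 1.5-fold and the dashed lines 2-fold; Psme3, Psmd7 and Psme1 lie above and Psme4 below the dotted lines, and Psme3 alone lies past a dashed one.

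By the brightest probe sets, the genes past 1.5-fold were mostly activators. Psme3, the activator of the nucleus, had 1949 in serum culture and 3983 in co-culture, a 2.04-fold higher value. Psmd7, a lid subunit that pairs with the deubiquitinase, had 2006 and 3468, 1.73-fold higher. Psme1, a subunit of the interferon-induced activator, had 1421 and 2212, 1.56-fold higher. Psme4, the large activator that acts as a single chain, went the other way with 6100 and 3962, 1.54-fold lower. Of the 4 measured genes for activators and the inhibitor, only Psmf1 lay within 1.5-fold by its brightest probe set. Of all measured genes 12.8% were past this limit upward and 21.6% downward. The activator gene Psme2, not counted because its probe set also carries Psme2b, had 2915 in serum culture and 3042 in co-culture. That is a log2 difference of 0.06. The mean over probe sets gave other genes: Psme4 had -0.16 on the log2 scale, and Psma3, Psmd11 and Psmg3 were past 1.5-fold upward as well. This mean weighs dim and bright probe sets alike. Dim ones, with mean intensities of 120, 126 and 83.9, gave log2 differences of 1.32 for Psma3, 0.99 for Psmg3 and 0.49 for Psme4. Psmd11 had both dim and bright probe sets above 0.

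Promoters are shown for the members at both ends of the range, Psme3, Psme1 and Psmb5 with the highest and Psme4, Psmd12 and Psmg1 with the lowest log2 differences among members with exactly 1 entry in the promoter table. Sequences are those of RefSeq on GRCm38.p6, from 250 bases before to 50 after the annotated start, written along the gene's own strand. Capitals mark matches on either strand to 3 motifs: TGANNNNGC, the antioxidant element bound by Nfe2l1 and Nfe2l2, CCAAT, bound by NF-Y, and the E-box CACGTG.
Psme3 chr11:101315963-101316262 (plus strand): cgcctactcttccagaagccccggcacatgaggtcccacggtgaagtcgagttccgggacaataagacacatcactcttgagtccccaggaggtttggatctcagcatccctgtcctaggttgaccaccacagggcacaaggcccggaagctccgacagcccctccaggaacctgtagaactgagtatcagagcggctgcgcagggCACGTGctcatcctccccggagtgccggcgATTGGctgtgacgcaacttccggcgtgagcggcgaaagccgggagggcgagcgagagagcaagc
Psme1 chr14:55578244-55578543 (plus strand): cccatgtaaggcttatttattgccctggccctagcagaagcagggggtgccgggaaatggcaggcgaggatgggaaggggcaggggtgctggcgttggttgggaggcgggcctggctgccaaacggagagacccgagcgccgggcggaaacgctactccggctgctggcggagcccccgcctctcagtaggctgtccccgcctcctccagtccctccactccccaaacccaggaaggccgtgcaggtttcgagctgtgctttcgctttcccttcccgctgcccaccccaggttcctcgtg
Psmb5 chr14:54617946-54618245 (minus strand): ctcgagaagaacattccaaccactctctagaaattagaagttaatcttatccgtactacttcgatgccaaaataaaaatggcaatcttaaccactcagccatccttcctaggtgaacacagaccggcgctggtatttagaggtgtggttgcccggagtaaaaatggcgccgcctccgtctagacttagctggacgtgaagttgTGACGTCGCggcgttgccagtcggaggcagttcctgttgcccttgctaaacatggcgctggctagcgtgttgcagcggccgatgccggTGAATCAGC
Psme4 chr11:30771525-30771824 (plus strand): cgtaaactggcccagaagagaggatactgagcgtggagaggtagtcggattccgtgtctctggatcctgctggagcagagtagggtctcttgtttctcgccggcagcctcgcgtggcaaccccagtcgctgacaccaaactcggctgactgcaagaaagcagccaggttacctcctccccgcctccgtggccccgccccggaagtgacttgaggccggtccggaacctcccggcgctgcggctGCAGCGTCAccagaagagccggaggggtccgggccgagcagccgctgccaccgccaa
Psmd12 chr11:107479278-107479577 (plus strand): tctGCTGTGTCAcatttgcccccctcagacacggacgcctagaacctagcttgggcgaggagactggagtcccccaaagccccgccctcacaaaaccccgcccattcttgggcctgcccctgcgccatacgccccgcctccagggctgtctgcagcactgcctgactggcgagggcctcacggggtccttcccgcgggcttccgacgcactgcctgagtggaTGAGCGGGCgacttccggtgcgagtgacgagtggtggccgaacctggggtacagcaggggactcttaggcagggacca
Psmg1 chr16:95990911-95991210 (minus strand): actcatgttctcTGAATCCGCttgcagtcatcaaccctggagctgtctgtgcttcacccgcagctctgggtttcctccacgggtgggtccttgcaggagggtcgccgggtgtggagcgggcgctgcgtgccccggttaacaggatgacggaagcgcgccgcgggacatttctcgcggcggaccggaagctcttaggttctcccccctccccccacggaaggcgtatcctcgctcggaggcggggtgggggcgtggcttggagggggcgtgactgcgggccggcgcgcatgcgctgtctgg
Psmb5 holds 2 matches to TGANNNNGC, Psmd12 holds 2, and Psme4 and Psmg1 hold 1 each. Psme3 holds 1 CCAAT and 1 CACGTG match and Psme1 holds no match to the 3 motifs. Promoters with a TGANNNNGC match were found at both ends of the range, and 41.3% of all 32851 promoters hold one.

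Over the whole group, 38 of 46 genes matched the table, with 41 promoters. TGANNNNGC was present in 23 of the 41 (56.1%), against 41.3% of all 32851 promoters. A stricter form that was added later, TGACNNNGC, whose matches are all matches of the first as well, was present in 6 (14.6%, against 12.4%), namely those of Psmb5, Psmb6, Psmc6, Psmd9, Psmd12 and Psme4. CCAAT was found in 15 (36.6%, against 37.4%) and CACGTG in 4 (9.76%, against 7.15%). The median GC content was 59% in member promoters and 52.7% in all, so base composition differed too. A match is a run of letters, not a measured site.

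In the core particle, the median of the beta ring was above that of the alpha ring by the brightest probe sets, 0.23 against 0.01 on the log2 scale, but 0.13 against 0.11 with the mean over all measured probe sets. The proteolytic subunits were all above 0: Psmb5, the chymotrypsin-like site and the target of bortezomib, had 3475 in serum culture and 4700 in co-culture, a log2 difference of 0.44. Psmb6, the caspase-like site, had 5592 and 6713, a difference of 0.26. Psmb7, the trypsin-like site, had 9268 and 11135, also 0.26. These values are below the 1.5-fold limit, which is 0.58 on the log2 scale, and none of the 3 genes had another probe set to set beside its value.

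The beta subunits without a proteolytic site were closer to 0. Psmb1 had a log2 difference of 0.23 by its brightest probe set and -0.04 by another bright one, Psmb3 of 0.11 and Psmb2 of 0.09, and Psmb4, with 8887 and 8505, had -0.06 and was the lowest of the ring. Of the 7 measured beta genes 6 were above 0, with a median of 0.23 and an SD of 0.16. The mean over all measured probe sets of each gene gave 5 of 7 above 0 with a median of 0.13, and without shared probe sets 4 of 6 were above 0 with a median of 0.12. The latter choice drops Psmb5, the highest of the ring, and changes the probe set of Psmb1, Psmb3 and Psmb4. After scaling to the spikes 4 of the 7 were above 0 and the median was 0.04. Relative to the median of all measured genes the ring was higher by 0.29 in the deposited values, by 0.12 with the mean over probe sets and by 0.16 without shared probe sets.

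The 7 measured alpha genes had a median log2 difference of 0.01, with 4 above 0 and 3 below, and 6 of 7 above 0 with the mean over probe sets. Psma5 was the highest of them, with 8235 in serum culture and 10960 in co-culture, a difference of 0.41, and another bright probe set of it gave 0.49. Psma1 was the lowest, with 7011 and 6032, a difference of -0.22. The other 5, Psma2, Psma3, Psma4, Psma6 and Psma7, lay between -0.11 and 0.02. The alpha and beta values overlap: Psma5 exceeds all beta genes but Psmb5.

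The ATPases leaned the other way by a small amount. Of the 6 genes 5 were below 0, with a median log2 difference of -0.17, an SD of 0.10 and a range of -0.27 to 0.04. After quantile normalization, and after scaling to the spikes, which lowers all genes, 6 of 6 were below 0. Under both other choices of probe set 4 of 6 were. Psmc6 then had 0.11 by the mean over probe sets and 0.59 without shared ones. By the brightest probe sets Psmc5 was the lowest, with 3788 in serum culture and 3140 in co-culture. Psmc2 was the highest, with 8771 and 9023. Relative to the median of all measured genes the ring was lower by 0.11 on the log2 scale. Its range overlaps that of the beta ring in Psmb4 and Psmc2 alone, and every ATPase lay within 1.3-fold by its brightest probe set. Another bright probe set of Psmc4 gave -0.73, against -0.19 by the brightest.

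The base subunits that are not ATPases hardly differed. Psmd1 and Psmd2, scaffolds on which shuttle factors and deubiquitinases dock, had log2 differences of 0.01 (4862 and 4900) and 0.03 (6781 and 6908). Psmd4, a ubiquitin receptor, had 4977 and 4582, a difference of -0.12. Its probe sets disagreed in sign, since another bright one gave 0.41.

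The lid held both an exception and a pattern like that of the ATPases. Of its 8 genes 6 were below 0 (7 after scaling to the spikes), with a median log2 difference of -0.15. Psmd14, the metalloprotease that cuts off the ubiquitin chain, had 7898 and 7006, a difference of -0.17. Psmd7, its partner, had 0.79, and its other measured probe sets, both dim, gave 0.87 and 1.62. Psmd12, a structural subunit, was the lowest with 5768 and 4352, a difference of -0.41, and Psmd8 had 0.12. The remaining 4, Psmd3, Psmd6, Psmd11 and Psmd13, lay between -0.24 and -0.11. With the mean over all measured probe sets of a gene the lid's median was 0.02, with 4 of 8 below 0. Without shared probe sets 3 of 6 were below 0. That choice dropped Psmd12 and Psmd14, both below 0, and left Psmd13 with a dim probe set (mean intensity of 42.4). Psmd11 moved most between these settings: its brightest probe set had 6295 and 5325, but another bright one gave 1.12 and the mean over its measured probe sets was 0.73.

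Taken as a whole, the 17 genes of the regulatory particle, ATPases, base and lid, had a median of -0.14 with 5 above 0, and the 14 measured genes of the core particle had a median of 0.05 with 10 above 0. The 31 genes together had an SD of 0.25. Bright probe sets of 1 gene (mean intensity of at least 1000) differed by a pooled SD of 0.32 over 1403 genes, which stands beside the 0.25 between different subunits. This measure covers probes and hybridisation, not cultures.

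**Figure D2:**
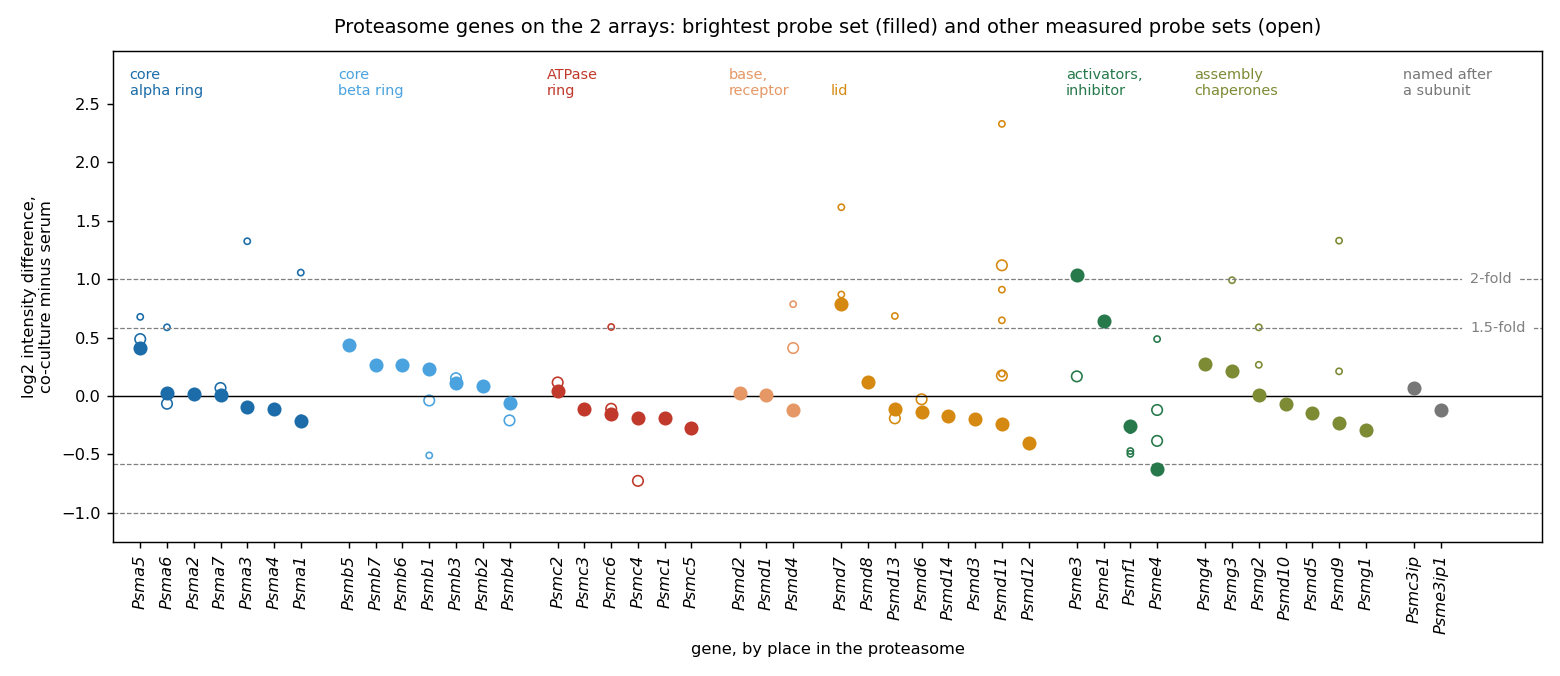
The log2 intensity difference, co-culture minus serum, of each measured proteasome gene, ordered within its place in the complex; filled points are the brightest probe set and open points the other measured probe sets (large where the mean intensity is at least 1000). Dashed lines mark 1.5-fold and 2-fold; 6 of 7 beta genes lie above 0 and 5 of 6 ATPases below, while many small open points lie far above their filled point.

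Among the activators and the inhibitor the spread was widest, with an SD of 0.77 over 4 genes and a range of -0.62 to 1.03. Psme3 passed 2-fold by 1 probe set only, since another bright probe set of it had 1993 and 2238, a log2 difference of 0.17. Over all settings tried its difference ran from 0.60 to 1.09. Psme1 had a single probe set, and its difference ran from 0.45 to 0.70. Psme4 had 3 bright probe sets, all lower, with log2 differences of -0.62, -0.38 and -0.12, and a dim one at 0.49. Psmf1, an inhibitor of the core particle in vitro, had 743 in serum culture and 620 in co-culture, a difference of -0.26, and all 4 of its probe sets were lower.

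The assembly chaperones had a median log2 difference of -0.07, with 3 of 7 genes above 0. With the mean over all measured probe sets the direction turned, to a median of 0.27 with 4 of 7 above 0. Psmg1, Psmg2, Psmg3 and Psmg4 help to build the alpha ring. Psmg4 was the highest, with 906 in serum culture and 1095 in co-culture, a difference of 0.27, and Psmg3 had 0.21. Psmg1 was the lowest, with 3345 and 2739, a difference of -0.29, although its product acts as a dimer with that of Psmg2, which had 0.01. Psmd5, Psmd9 and Psmd10, chaperones of the ATPase ring, had -0.14, -0.23 and -0.07, but dimmer probe sets of Psmd9 gave 0.21 and 1.33. Psmd10, also known as gankyrin, had 307 and 293.2. The misnamed genes were close to 0, Psmc3ip at 0.07 by both of its probe sets and Psme3ip1 at -0.12.

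Agreement between probe sets depended on their brightness. Of the 16 members with at least 2 bright probe sets, 12 had the same sign in all of them and 4 did not (Psma6, Psmb1, Psmd4 and Psmd11), and the median gap between the highest and lowest was 0.10 on the log2 scale. The widest gaps were those of Psmd11 (1.36), Psme3 (0.86) and Psmc4 (0.54). Dim probe sets of the members were mostly higher in co-culture: of 16 that were measured with a mean below 200, 13 were higher, with a median of 0.73, and over all genes 60.6% of 8109 such probe sets were higher, with a median of 0.15. Of 60 member probe sets with a mean of at least 1000, 30 were higher, and the median was -0.01.

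**Figure D3:**
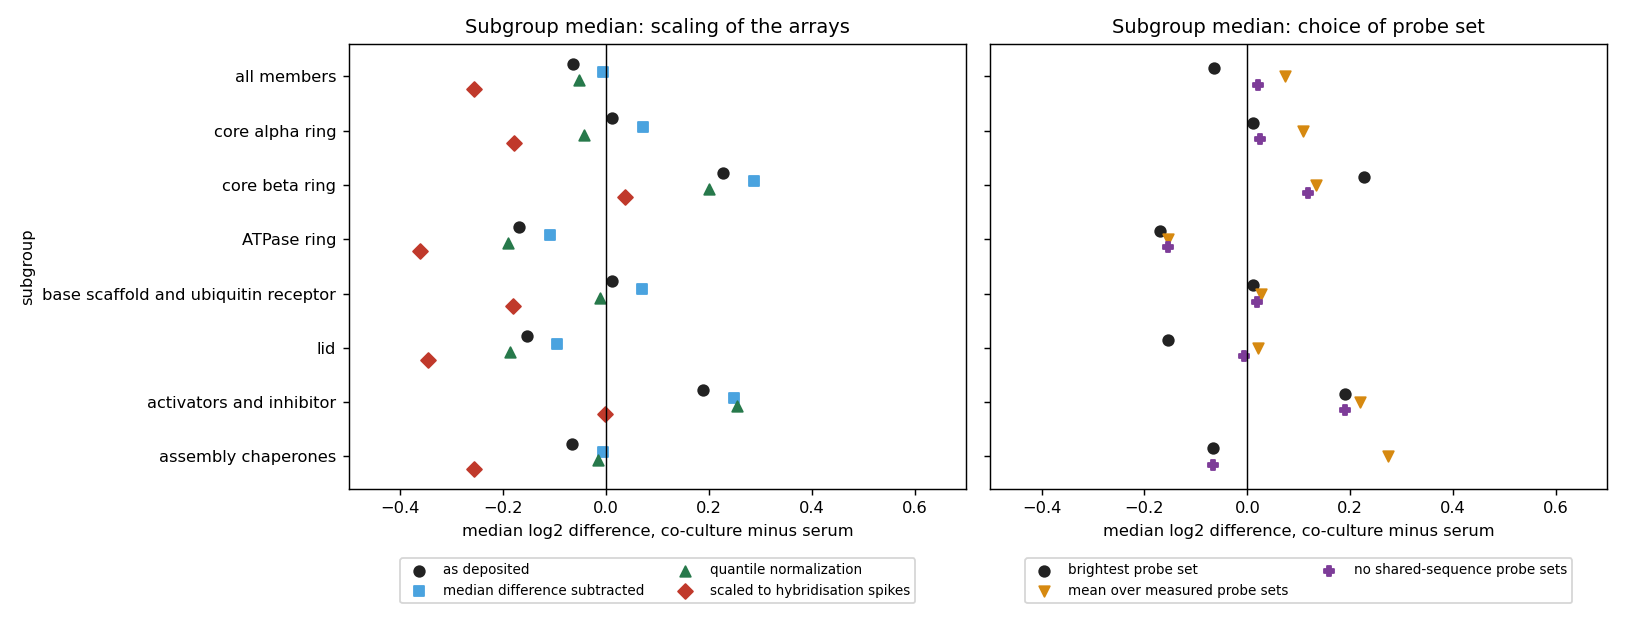
Median log2 difference, co-culture minus serum, of each subgroup of proteasome genes by the brightest probe sets under 4 scalings of the arrays (left), and in the deposited scaling under 3 choices of probe set (right); each point is the median of 1 subgroup. Scaling to the spikes moves the subgroups to the left together, while the choice of probe set moves them unequally: the beta ring from 0.23 to 0.13 and 0.12, the assembly chaperones from -0.07 to 0.27 and -0.07.

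The position of a subgroup against 0 depends on how the arrays are scaled. The deposited values had the same mean, 500.003 after trimming 2% of the probe sets at each end, on both arrays, so a difference near 0 is relative to that common mean. Over 18 probe sets the spikes had a mean log2 difference of 0.19, and scaling to them moved the median of all measured genes from -0.06 to -0.26 and that of the 44 proteasome genes from -0.06 to -0.26. Measured against all genes, the median of the 44 was 0.0022 after this scaling, -0.0055 in the deposited values and 0.045 after quantile normalization. Subtracting a median and scaling to spikes shift all genes nearly alike, so they say little about the order of subgroups. The choice of probe set left the ATPase ring with a median of -0.15 and 4 of 6 genes below 0 under both alternatives. By the brightest probe sets these were -0.17 and 5 of 6.

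Few of the genes that work with the proteasome passed a fold limit either, but their differences were more spread out. The lists held 42 genes, of which 33 had a probe set with 1 symbol and 32 were measured; 1 was at least 1.5-fold higher, 3 were at least 1.5-fold lower, and none passed 2-fold. The shares over all measured genes were 12.8% and 21.6% at 1.5-fold and 4.6% and 10.1% at 2-fold. Their log2 differences had a median of 0.07 and an SD of 0.39, against -0.06 and 0.31 for the proteasome genes. Of the immunoproteasome subunits, which replace the proteolytic ones in immune cells, Psmb10 was bright, with 2329 in serum culture and 3454 in co-culture and a difference of 0.57, just under 1.5-fold. Psmb8 (35.02 and 18.3) was below 44.3 on both arrays and Psmb9 (50.5 and 38.6) in co-culture, so Psmb10 alone was bright. Pomp, which matures the core particle, had 7316 and 7918, a difference of 0.11.

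Among enzymes and adaptors bound to the proteasome, 2 of 8 were at least 1.5-fold lower, a share near the 21.6% of all measured genes, and none was higher, against 12.8%. Ecpas, which tethers the core to the regulatory particle, had 3216 in serum culture and 1725 in co-culture, 1.86-fold lower, and other probe sets gave log2 differences of -1.23, -0.69 and, for a dim one, 0.50. Ubr4, a ubiquitin ligase of the N-degron pathway, had 1302 and 796, 1.64-fold lower. Usp14, a deubiquitinase bound to the base, had 1857 and 2526, a difference of 0.44. Its other probe sets gave 0.42, -0.09 and, for a dimmer one, 1.72. The list's median was -0.20. After scaling to the spikes, which moved the median of all measured genes to -0.26, 4 of the 8 were at least 1.5-fold lower. The share over all genes under this scaling was not counted.

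Of 9 measured shuttle factors and unfoldase genes 1 was at least 1.5-fold higher, close to the 12.8% of all measured genes, and the median log2 difference was 0.14 (-0.05 after scaling to the spikes). Ufd1, a cofactor of the unfoldase Vcp, had 1512 and 2379, 1.57-fold higher, but another bright probe set gave -0.03. Vcp itself had 0.04, and a dimmer probe set of it gave 1.24. Rad23b and Ubqln4, which carry ubiquitinated proteins to the proteasome, had 0.41 and 0.49.

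Of the 9 genes for transcription factors of the proteasome genes and their partners, 1 was at least 1.5-fold lower (21.6% of all measured genes were) and none was higher (12.8%). Nfe2l1 had 3321 in serum culture and 2966 in co-culture, a log2 difference of -0.16, and Nfe2l2 had 2240 and 2357, a difference of 0.07. Ngly1, the deglycosylating enzyme that Nfe2l1 protein needs to become active, had 373 and 218, 1.71-fold lower. The NF-Y subunits Nfyc and Nfyb had 0.37 and 0.28. Of the small Maf proteins, dimer partners of Nfe2l1, Maff was dim, with 93.5 and 70.5 and a difference of -0.41 (-0.67, past 1.5-fold, after quantile normalization). Mafg had -0.10, but another bright probe set of it gave 0.90. The median over the 9 genes was -0.06. The activity of Nfe2l1 is set largely after transcription, which an array does not read.

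**Figure D4:**
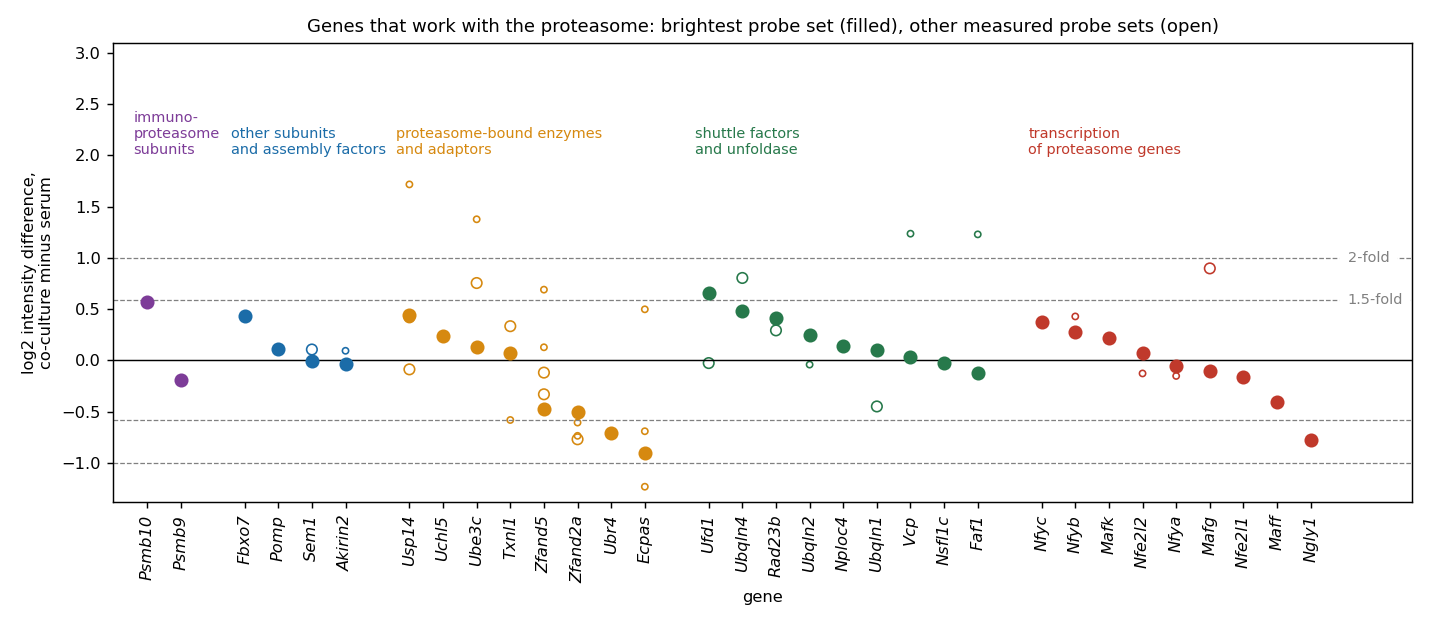
The log2 intensity difference, co-culture minus serum, of the measured genes that work with the proteasome, by list; filled points are the brightest probe set and open points other measured probe sets (large where the mean intensity is at least 1000). Ufd1 lies above the upper 1.5-fold line, and Ubr4, Ngly1 and Ecpas lie below the lower one, with no filled point past 2-fold.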

How the data were processed

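Both arrays were made from total RNA by copying from a poly(A) primer and labelling with biotin, per the labels' protocols. The deposited values are linear intensities per probe set, and how the authors corrected and scaled them is not stated in the labels; both arrays share a 2% trimmed mean of 500.003. Names come from the platform annotation, for probe sets with 1 symbol. Values below the floor of 44.3 (the pooled median) were set to it, log2 was taken, and a gene's brightest probe set by mean intensity was used. A gene was measured when that probe set passed the floor on at least 1 array. Limits of 2-fold and 1.5-fold were used for counts, beside the same counts over all measured genes. No test is possible with a single array in each group, and the number of arrays limits the precision. The members, the gene lists and the limits were chosen with earlier results of these data known. Any member could be named; values in full went to members past 1.5-fold, the extremes of each subgroup, the proteolytic subunits, Psmd4, Psmd14, the activators and Psmf1, and to context genes past 1.5-fold and Psmb8, Psmb9, Psmb10, Nfe2l1, Nfe2l2 and Pomp. Usp14, Rad23b, Ubqln4, Vcp, Nfyb, Nfyc, Maff and Mafg, which fall outside that rule, and the values of other members, were chosen after they were seen. Listed genes without a probe set of 1 symbol, among them Adrm1 and 5 ubiquitin genes, were not analysed here. Alternatives were 4 floors or pseudocounts, 3 scalings, 2 probe set choices, leaving out probe sets marked as shared, and updated symbols. Steps were tested on simulated data. Python 3.11.15 with numpy 2.4.6 and pandas 2.3.3 was used.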

Additional observations from a re-analysis of the deposited data

How the results depend on the processing

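With 1 array per culture, and low intensities lifted in co-culture, differences between dim probe sets carry the least weight. No gene past 1.5-fold by its brightest probe set in the deposited values changed sign under any alternative. Psma3, Psmc6, Psmd11 and Psmd13, past 1.5-fold upward only under another choice of probe set, were below 0 by their brightest ones. Updated symbols and choosing the probe set by mean log2 moved no count or median beyond its limit. Leaving out Psmc3ip and Psme3ip1, an alternative added after the data were seen, changed no count of members past 1.5-fold or 2-fold, and the number of members within 1.3-fold ran from 30 to 38 over all settings. No paired analysis was possible because each group has 1 array. Scaling to the spikes moved the median log2 difference to -0.26 for all members, -0.18 for the alpha ring, 0.036 for the beta ring, -0.35 for the lid, -0.26 for assembly chaperones, -0.39 for bound enzymes and adaptors, -0.048 for shuttle factors and -0.25 for transcription factors. With it 0 members were higher by 2-fold, and 2 members and 4 bound enzymes were lower, 0 shuttle factors were higher and 2 transcription genes lower at 1.5-fold. Shares over all genes under this scaling were not counted. The mean over probe sets gave medians of 0.074 for all members, 0.021 for the lid, 0.27 for chaperones and 0.31 for shuttle factors. At 1.5-fold 6 of 44 members, 2 of 8 bound enzymes and 2 of 9 shuttle factors were higher, and 0 members were lower. Of all measured genes 14.6% were higher and 18.1% lower under that setting. The beta ring's median was 0.13 with the mean over probe sets and 0.12 without shared ones, which drops Psmb5, against 0.23. Leaving out probe sets marked as shared left 39 measured members, with a median of 0.021, and gave bound enzymes a median of 0.0052. Of the 39 members 2 (5.13%) passed 2-fold upward, against 5.46% of all measured genes. At 1.5-fold 7 (17.9%) did, against 14.7%. Psma3, Psma5, Psmc6 and Psmd13 were among the 7 only by much dimmer probe sets. Subtracting the median difference left 0 members lower and 1 immunoproteasome gene higher at 1.5-fold. A floor at percentile 25 gave 2 members at least 2-fold higher, the second being Psma8, and for the immunoproteasome a median of -0.39 with 1 gene lower. Floors at percentile 75 and at 200 left Psmb10 alone there, at 0.57. The floor at percentile 75 gave 0 transcription genes lower at 1.5-fold and quantile normalization gave 2. Shares over all genes under these floors, the subtracted median and quantile normalization were not counted. Except for effects that a shift of all genes or a smaller set of genes gives by construction, the cause was not tested.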
